A study of Mus musculus with 8 samples.

Results

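The Hox genes are 38 of the 28785 genes and transcripts on this mouse array, read by 49 of its 41174 probes. They were chosen by name alone, as every non-control probe whose gene name in the scanner files is Hox, a cluster letter a to d and a number. No measured value entered that choice. Of the 38 genes, 11 had more than 1 probe and 27 had 1. The genes divide into 11 of the HoxA cluster, 10 of HoxB, 8 of HoxC and 9 of HoxD, and Hoxc11 was not analysed here.

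RNA came from primary vascular smooth muscle cells, the contractile cells of the artery wall, grown from aortas of C57BL/6 mice in medium with fetal bovine serum. Of the 8 arrays, 4 held cultures given 1 µM angiotensin II (AngII), a peptide hormone that contracts arteries. The other 4 held cultures given the same dose with 200 ng/ml cyclosporin A (AngII+CsA), which blocks the phosphatase calcineurin. All 8 therefore carry angiotensin II, and the labels name the aorta but no segment of it, no sex and no age. The cultures are called independent in the labels and carry a number from 1 to 4 in both groups. The file headers place the 2 arrays of a number on 1 slide, scanned together.

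Hox genes encode transcription factors that bind DNA through a homeodomain. They lie in 4 clusters, and the order of genes along a cluster follows the order of the body segments where they are active in the embryo, from head at the low numbers to tail at the high ones. Genes with the same number in different clusters descend from 1 ancestor and form a paralog group. Adult fibroblasts and arterial smooth muscle keep parts of this code in culture, and it differs between the places of the body that they come from.

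Levels are given as log2 processed signal after subtracting the array's own 75th percentile, so a probe at that percentile has a level of 0. The levels of different probes are not set against each other, because probes differ in how strongly they bind. A spot is well above background where the scanner software marks it so, and a gene counts as present where a probe of it is so marked on at least 4 of the 8 arrays. Of all probes, 42.8% to 51.7% were well above background on an array, and no spot was saturated. Rcan1, which calcineurin induces through NFAT, checks the treatment. Its level averaged 5.01 in the AngII arrays (SD 0.61, n = 4) and 2.75 in the AngII+CsA arrays (SD 0.69, n = 4). It was lower in 4 of 4 pairs (limma with a replicate block, adjusted p = 0.0131). In limma on the groups alone Rcan1 did not pass, with the difference at -2.26. Of 12 smooth muscle markers 11 were present, with Acta2, Tagln, Cnn1 and Myh11 on all 8 arrays and Myocd on 1. Of 9 endothelial markers 4 were present, while 3, namely Pecam1, Cdh5 and Tie1, were well above background on no array. Whether the cultures held endothelial cells was not tested.

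In these cells 23 of 38 Hox genes were present, or 60.5%, beside 51.7% of all genes on the array (14881 of 28785). The counts differed by position within the clusters. Of genes in paralog groups 1 to 4, 9 of 12 were present, and of groups 5 to 9, 12 of 15. Of groups 10 to 13, 2 of 11 were present, namely Hoxd10 on 6 arrays and Hoxc13 on 4. Of all Hox genes, 17 were well above background on all 8 arrays, 6 on 4 to 7, 4 on 1 to 3 and 11 on none. These counts are a description of signal on this array, and a probe that stays dim does not show that its gene is silent.

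**Figure D1:**
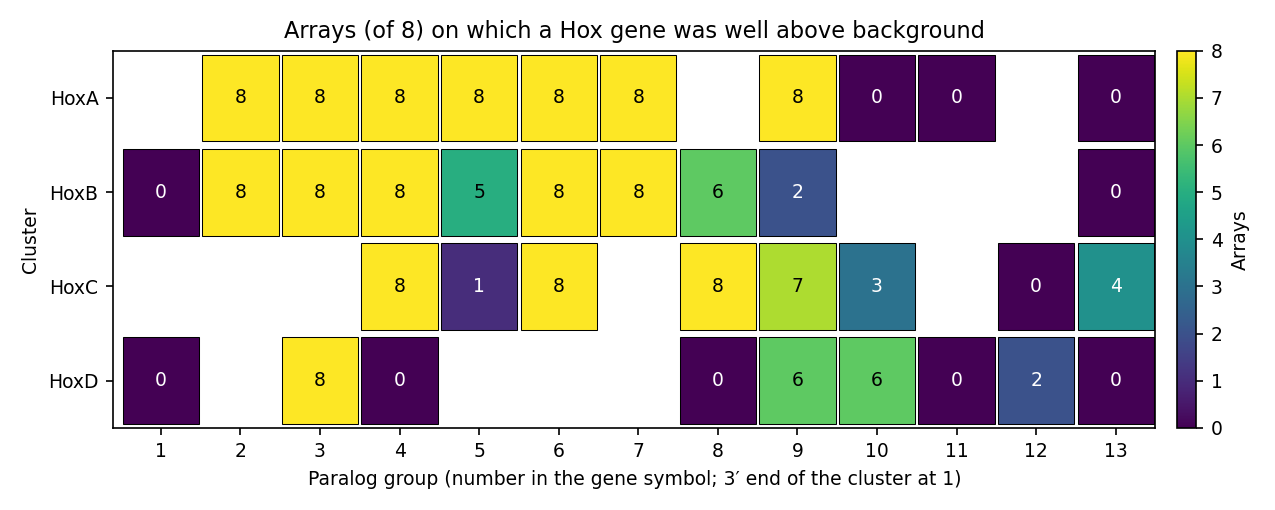
The 4 Hox clusters (rows) by paralog group (columns); each coloured cell gives the number of arrays, out of 8, on which the gene's best probe was well above background, and blank positions were not analysed or are not shown. HoxA reads 8 at each gene shown from group 2 to group 9 and 0 from group 10 on, and HoxD has 8 only at group 3.

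The HoxA cluster was read up to group 9. Its 8 genes up to Hoxa9, which pattern the hindbrain, neck and trunk, were well above background on all 8 arrays, and Hoxa10, Hoxa11 and Hoxa13, genes of the limbs, kidney and genital tract, on none. Hoxa7 had a level of 3.66 ± 0.56 (SD, n = 4) with AngII, and Hoxa9, the last present gene of the cluster, had 0.35 ± 0.12 (SD, n = 4). In HoxB, 7 of 10 genes were present: Hoxb2, Hoxb3, Hoxb4, Hoxb6 and Hoxb7 on all 8 arrays, Hoxb8 on 6 and Hoxb5 on 5. Hoxb1, a hindbrain gene, and Hoxb13, a gene of the tail and prostate, were well above background on none, and Hoxb9 on 2.

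In HoxC, 5 of 8 genes were present. Hoxc4, Hoxc6 and Hoxc8, genes of the neck and thorax, were well above background on all 8 arrays, Hoxc9 on 7 and Hoxc13, known for its role in hair and nails, on 4. Hoxc10 reached 3 arrays, Hoxc5 reached 1 and Hoxc12 none. HoxD was the cluster with the fewest present, 3 of 9: Hoxd3 on 8 arrays, and Hoxd9 and Hoxd10 on 6 each. Hoxd1, Hoxd4, Hoxd8, Hoxd11 and Hoxd13 were well above background on none, and Hoxd12 on 2. Of paralog group 9 every cluster's gene was therefore well above background on at least 2 arrays.

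The number of Hox genes well above background was 20 to 24 on each array. HoxA gave 8 on every array, while HoxD gave 1 on both arrays of number 1 and 3 or 4 on the others. Genes of groups 10 to 13 gave 0 to 4. Without both arrays of number 1, 24 Hox genes were present, on at least 3 of the 6 arrays left.

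A probe decides what its gene can show. Each probe is 60 bases long, and 46 of the 49 share no run of more than 12 bases with a probe of another Hox gene. The other 3 are those of Hoxa9, Hoxb3 and Hoxd10. Hoxa9 and Hoxb3 are read in the homeobox, where Hox genes resemble each other most, within the part that codes for the DNA-reading helix of the homeodomain, and their probes share a run of 22 bases. The Hoxa9 probe also shares 14 bases with the Hoxd10 probe. Only a short stretch of that helix was searched for, so probes of other genes can lie in the homeobox as well. Probes were compared with each other and not with the transcripts of paralogs. Whether signal of a paralog adds to the values of these 3 genes, or of the others, was not tested.

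Probes of the same gene did not always give the same reading. The other probes of Hoxb2, Hoxb8 and Hoxd3 were well above background on no array, and that of Hoxb2 lies on the opposite strand to its cluster. With every probe of a gene required, 20 Hox genes were present. In all, 16 probes of 14 genes were dim on all 8 arrays, with mean levels of -5.64 to -5.15.

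The 2 groups were compared to ask which transcripts of angiotensin-treated cells respond to cyclosporin A. For Hox genes the answer was that none was shown to. Of the 23 Hox genes tested, 0 passed an adjusted p of 0.05 in limma on the groups alone, where 0 of 14881 genes passed (0%). Since Rcan1 did not pass there either, that fit cannot show that a gene is unchanged. With the replicate number as a block 0 Hox genes passed as well, beside 4 of 14881 genes (0.0269%). Without adjustment, 0 Hox genes had a p under 0.05 in either fit, beside 42 of all genes without the block and 790 with it. The smallest adjusted p of a Hox gene was 1.00 without the block and 0.885 with it.

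The differences themselves were small. The median over the 23 Hox genes of AngII+CsA minus AngII was -0.03 (log2), as it was over all genes tested (-0.03). Of the Hox genes 8 had a positive difference and 15 a negative one, a share of 34.8% positive beside 43.4% of all genes. The sign of so small a median is not settled, since quantile normalization and the authors' table put it at 0.03. In 21 of 23 genes the difference was within 0.25 either way. With the block, the 95% interval lay inside 0.5 either way for 18 genes and inside 1 for 21. For those 21 a change of more than 2-fold in either direction lay outside the interval. Among them, Hoxb5, Hoxc9, Hoxc13 and Hoxd9 were well above background on only 5, 7, 4 and 6 of the 8 arrays. On their dim arrays a change in level could go unseen, so their intervals do not bound it there.

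The lowest and the highest difference belonged to Hoxa3 and Hoxd10, and neither passed. Hoxd10 had levels of -5.42, -2.88, -2.51 and -2.78 with AngII and -3.82, -3.17, -2.19 and -2.95 with AngII+CsA, in the order of the numbers 1 to 4. Its groups overlap, its difference was 0.36 (block interval -0.38 to 1.11), and the pair of number 1, where neither array was well above background, gave 1.60. Hoxa3 had -1.04, -0.20, 0.40 and -0.63 with AngII and -0.44, -0.75, -0.81 and -0.65 with AngII+CsA. Its groups overlap too, the difference was -0.29 (block interval -0.97 to 0.38), and its other probe gave 0.05.

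Hoxc8, a gene of the thorax, had the smallest p of the Hox genes in limma with the block (adjusted p = 0.885). Its levels were -1.68, -2.10, -2.15 and -2.22 with AngII and -1.36, -1.89, -1.69 and -2.26 with AngII+CsA, higher in 3 of 4 pairs. The difference was 0.24 (block interval -0.05 to 0.53), and with normexp background correction it was -0.04. Hoxa5, which patterns the neck and lung, was the single gene higher in 4 of 4 pairs, by 0.00 to 0.32, and no Hox gene was lower in 4 of 4. Among all genes 14.9% went 1 way in all 4 pairs.

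Hoxa9 and Hoxd9 had small differences by their brightest probes. Hoxa9 had levels of 0.34, 0.27, 0.53 and 0.28 with AngII and 0.33, 0.45, 0.66 and 0.25 with AngII+CsA, 2 pairs higher and 2 lower. Hoxd9 gave pair differences of -0.07, 0.06, 0.03 and -0.08, a mean of -0.01 with a block interval of -0.25 to 0.22, and the arrays of its number 1 were not well above background. Its probe 2 gave 0.66, 0.33, -0.52 and 0.20, a mean of 0.17. Hoxb8 had the widest interval, -1.51 to 1.72: its pairs of numbers 2 and 3 differed by -2.34 and 2.40, each with 1 array that was not well above background.

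**Figure D2:**
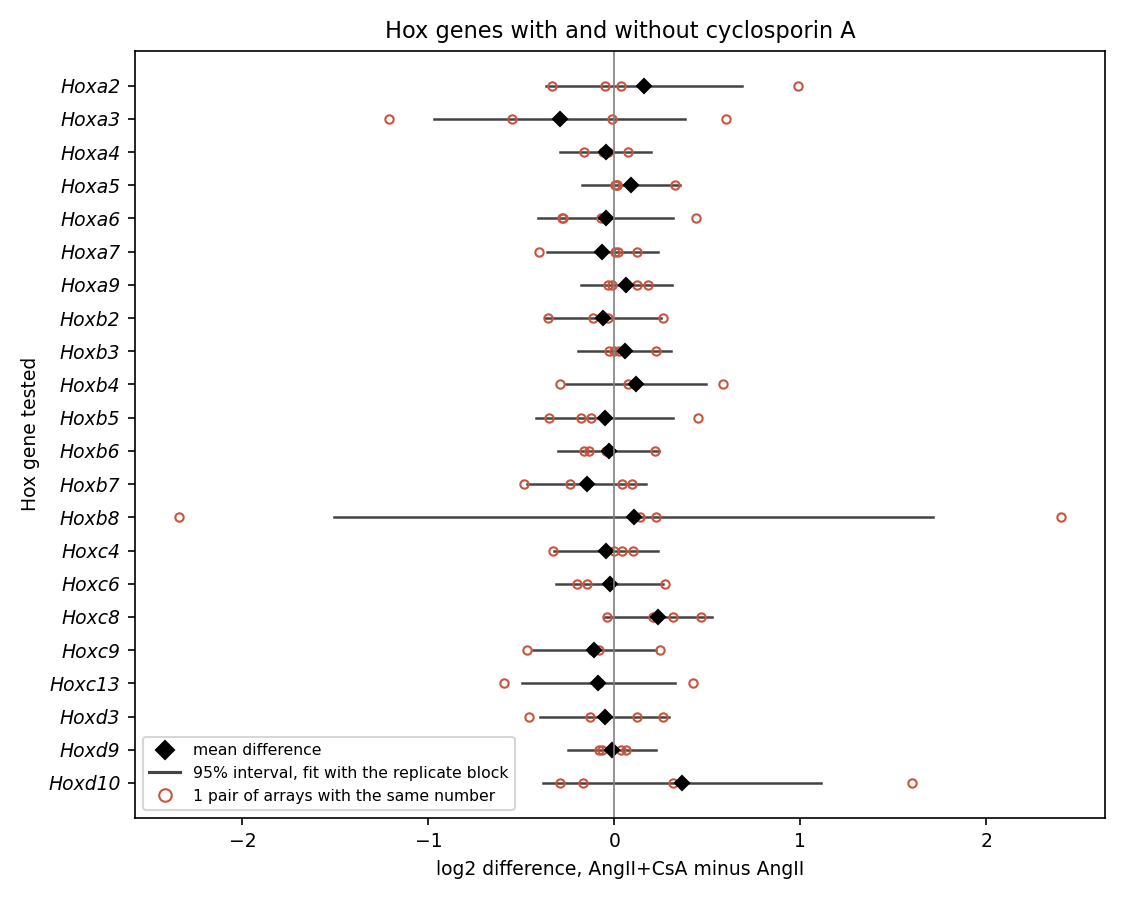
The log2 difference AngII+CsA minus AngII (horizontal axis) for 22 of the 23 Hox genes tested (vertical axis): diamonds are means over 4 arrays a group, open circles the 4 pairs of arrays with the same number, and lines the 95% interval of the fit with the replicate block. Each interval spans 0, and Hoxb8 and Hoxd10 have the widest.

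Genes that act with Hox proteins or on the clusters gave no call in this comparison either. Of the TALE homeodomain proteins, which bind DNA together with Hox proteins, 8 of 9 genes were present and 0 passed in either direction with either fit, with Meis1 at a difference of 0.18 and Pknox1 at 0.26. Of the Polycomb genes, which keep silent Hox genes closed, 20 of 23 were present and 0 passed, with Phc2 at -0.49 and Phc3 at 0.19. Of the Trithorax genes, which keep active ones open, 11 of 11 were present and 0 passed, with Kdm6b at 0.46 and Ash1l at 0.46. Of the retinoic acid pathway, which switches on 3′ Hox genes in the embryo, 14 of 17 were present and 0 passed, with Rxrg at -0.59 and Dhrs3 at -0.27.

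The replicate numbers differed far more than the groups. In limma's F test of the replicate number, with group in the model, 12 of the 23 Hox genes passed an adjusted p of 0.05, or 52.2%. Over all genes 10120 of 14881 passed, or 68%, so the share of Hox genes called was below the background. Among those that passed were Hoxa5, Hoxa7, Hoxb3, Hoxb4, Hoxb5, Hoxb6, Hoxb7, Hoxc8, Hoxc9, Hoxd9 and Hoxd10. Leaving out single arrays gave 5 to 14 Hox genes and 6009 to 11183 genes in all. Hox genes and all genes passing numbered 5 and 6009 without AngII number 4, 6 and 6224 without AngII+CsA number 4, 7 and 6426 without AngII number 2, and 14 and 11183 without AngII+CsA number 1. Hoxb4 and Hoxb6 lost their calls in 11 of 19 alternatives and Hoxc8 in 12 of 19, and the other probe of Hoxb6, well above background on all 8 arrays, had number means of 1.38, 1.44, 1.48 and 1.32 and did not pass (adjusted p = 0.780). The range of the 4 number means had a median of 0.78 over the Hox genes and 0.90 over all genes. Culture, slide and scan carry the same number here and cannot be told apart.

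The range over the numbers exceeded 1 log2 unit in 4 of the 23 Hox genes, beside 42.4% of all genes. Hoxa4 had a range of 0.24 by its brighter probe, but its other probe, also well above background on all 8 arrays, had number means of -2.25, -1.60, -1.33 and -1.41 and passed (adjusted p = 0.0309). Hoxa9, Hoxc4 and Hoxb2 had ranges of 0.33, 0.33 and 0.40. Over all 8 arrays Hoxa9 ran from 0.25 to 0.66 with a median of 0.33, and Hoxc4 from 2.70 to 3.20 with a median of 2.84.

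Hoxd9, Hoxc9 and Hoxd10 had measured ranges of 3.84, 3.18 and 2.27, beside 7.12% of all genes over 2. Those of Hoxd9 and Hoxd10 start from arrays that were not well above background, and as bounds they are at least 1.71 and 1.02. The bound of Hoxd10 is close to the 0.99 of Hoxa7, which is a measured range and not a bound. Hoxd9, Hoxc9 and Hoxd10 belong to paralog groups 9 and 10, near the 5′ end of the genes present here. All 3 were low on the arrays of number 1. The probes that read them, and those of Hoxb9, which went the other way, are shown by their first 30 bases of 60, 5′ to 3′, in build mm7 and on the plus strand.
Hoxd9 probe 1, chr2:74543335-74543394: ggacactgtatttgctcgcatatgtattgg
Hoxd9 probe 2, chr2:74542992-74543051: tcttcaacatgtacctcacccgggaccggc
Hoxd10, chr2:74537939-74537998: gcgagcgccgcctagagatcagtaagagcg
Hoxc9, chr15:102970460-102970519: tgcaaactcttgcgatgtgggagggttaag
Hoxb9 probe 1, chr11:96384790-96384849: tcctatcctcatttgacagaatgtaacttt
Hoxb9 probe 2, chr11:96385473-96385532: gcttgtgttttgtgatttctttggcagtga
The longest run that the Hoxd9, Hoxc9 or Hoxb9 probes share with a probe of another Hox gene is 9 bases.

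Hoxd9 patterns the lumbar spine and the limbs. Its probe 1 read -5.47, -2.49, -1.68 and -1.88 with AngII, in the order of the numbers 1 to 4, and -5.54, -2.43, -1.64 and -1.96 with AngII+CsA. Both arrays of number 1 were not well above background, and the other 6 were. For bounds, number 1 was counted at the lowest signal its arrays marked well above background. By this limit, numbers 2, 3 and 4 were at least 1.88-fold, 3.27-fold and 2.72-fold higher than number 1. The limit is not strict, since a probe can read slightly above it without the mark. Hoxc9 did so on the AngII+CsA array of number 1, at -3.40 beside a limit of -3.42. The bounds given here are therefore approximate and carry no error. The limma F test used the measured values, not these bounds, and asks for any difference among the numbers (adjusted p = 0.000437). Probe 2 read -5.53 and -4.87 on the arrays of number 1 and -2.65 to -1.51 on the others, bounds of at least 1.84-fold, 3.02-fold and 2.04-fold.

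Hoxc9, a gene of the lower thorax, read -2.93, -0.15, -0.11 and -0.37 with AngII and -3.40, -0.23, 0.14 and -0.49 with AngII+CsA. Its AngII array of number 1 was well above background and its AngII+CsA array of that number was not. The mean of number 1 lay 2.96 log2 units below the mean of the other numbers. The limma F test for any difference among the numbers gave Hoxc9 an adjusted p of 0.000977. Hoxd10, next to Hoxd9 in its cluster, was not well above background on either array of number 1 and was on the other 6. As bounds, numbers 2, 3 and 4 were at least 1.27-fold, 2.03-fold and 1.42-fold above number 1. On the measured values the limma F test over the numbers gave Hoxd10 an adjusted p of 0.0180.

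These calls lean on number 1. Hoxd9 passed under each of the 18 alternatives that gave it a value, with adjusted p of 0.000187 to 0.0172, while the ranges were 0.000160 to 0.0930 for Hoxc9 and 0.00716 to 0.0606 for Hoxd10. Without both arrays of number 1 Hoxd9 kept its call (adjusted p = 0.0172), while Hoxc9 (0.0930) and Hoxd10 (0.0571) lost theirs. In that setting 7 Hox genes passed, beside 9123 of all genes, where 12 and 10120 passed with number 1. With no filter on dim probes Hoxd10 had an adjusted p of 0.0606. Number 1 was the lowest for all 3 genes under the 75th percentile, normexp, quantile normalization and the authors' table, but the size depends on the background correction. With normexp the ranges were 0.62 for Hoxd9, 1.14 for Hoxc9 and 0.44 for Hoxd10, beside 1.04 for Hoxa7, 0.74 for Hoxb7 and 0.63 for Hoxb4. With the 75th percentile the median gene of number 1 lay at -0.11 from its mean over the numbers and that of number 3 at 0.07.

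**Figure D3:**
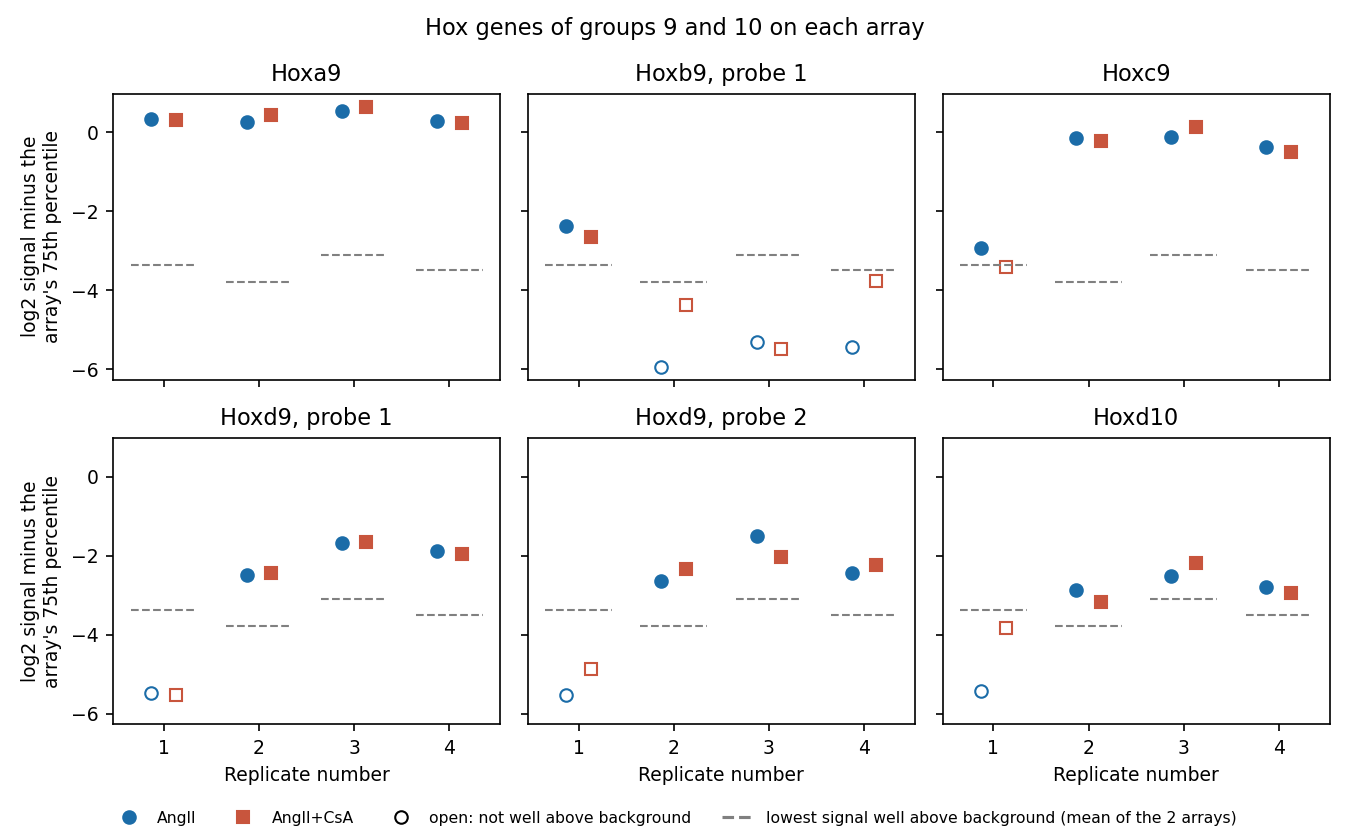
Levels (log2 signal minus the array's 75th percentile) of the Hox genes of groups 9 and 10 named in the panels on each array, by replicate number; filled symbols were well above background, open ones were not, and the dashed line is the lowest signal well above background. Hoxd9, Hoxc9 and Hoxd10 are low at number 1, Hoxb9 is high there, and Hoxa9 stays between 0.25 and 0.66.

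Hoxb9 had the opposite pattern. It is a gene of the thorax whose best probe passed background on 2 arrays, so it was left out of the test. Those were the arrays of number 1, at -2.37 with AngII and -2.65 with AngII+CsA, and the other 6 read -5.94 to -3.75. Number 1 was at least 2.42-fold, 1.51-fold and 1.98-fold above numbers 2, 3 and 4. Probe 2 was well above background on 1 array, that of AngII number 1. In the limma F test with no filter, where 53.5% of 28784 genes passed, Hoxb9 had an adjusted p of 0.0476. That fit also passed genes that were well above background on no array, so this p does not show that Hoxb9 is high at number 1. The measured mean of number 1 was its highest under each of the 4 scalings.

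The 4 paralogs of group 9 read differently at number 1: there was a low gene in HoxC and in HoxD, a high one in HoxB, and Hoxa9, which did not pass (adjusted p = 0.237). The probes of Hoxc10 disagree. Probe 1 read -5.49 and -5.55 on the arrays of number 1 and -4.00 to -3.04 on the others, while probe 2 was well above background on the AngII array of number 1 alone. Of 15 Hox genes that the filter left out, 7 passed in the fit with no filter, and some of them, such as Hoxa11 and Hoxd8, were well above background on no array.

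Over the 23 tested Hox genes, both arrays of number 1 lay below the other 6 in 5 genes (Hoxa6, Hoxb3, Hoxc9, Hoxd9 and Hoxd10), beside 19.5% of all genes. They lay above the other 6 in 4 genes (Hoxa5, Hoxa7, Hoxb7 and Hoxc8), beside 17.4% of all genes. These shares are near the background. Hoxa7 read 4.49 and 4.09 on the arrays of number 1 and 3.29 to 3.60 on the others (adjusted p = 0.0113). Hoxb7 read 4.22 and 3.74 there and 3.07 to 3.65 on the others (adjusted p = 0.0249). Both lost their calls without number 1, with adjusted p of 0.219 and 0.0604. Over all alternatives their adjusted p ran from 0.00387 to 0.219 and from 0.0107 to 0.103.

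**Figure D4:**
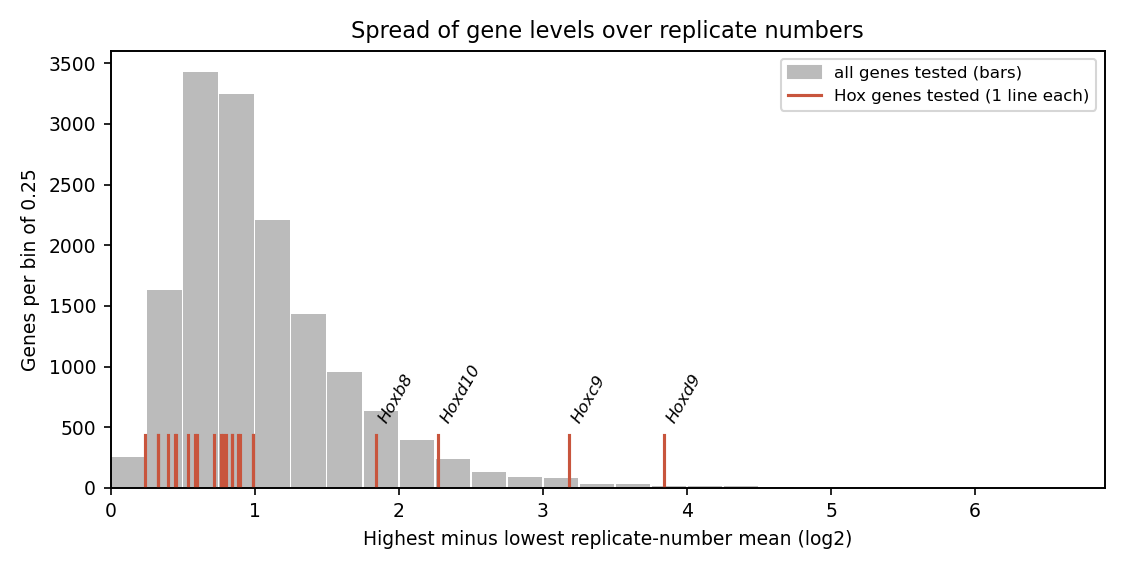
Grey bars count all genes tested by the range of their 4 replicate-number means (log2, bins of 0.25), and each red line is a Hox gene, drawn at its own range with no height scale. Of the 23 Hox genes 19 lie below 1, and Hoxb8, Hoxd10, Hoxc9 and Hoxd9 lie at 1.84, 2.27, 3.18 and 3.84; for Hoxd10 and Hoxd9 the lowest mean was not well above background.

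Other genes and cell type markers moved with the number as well. All 12 smooth muscle markers, present or not, were summed on the linear scale as multiples of each array's 75th percentile. The sum came to 250 and 318 on the arrays of number 1 and to 748 to 1448 on the others. Acta2, smooth muscle actin, had number means of 5.59, 7.19, 8.75 and 8.49, Tagln had 7.31, 8.77, 9.25 and 9.44, and Cnn1 had 4.55, 6.63, 7.47 and 7.00. Myh11, the smooth muscle myosin, had 0.53, 0.64, 0.48 and -0.06 and did not pass the F test. Cald1, an actin-binding protein of the same list picked after its values were seen, was highest at number 1, with 3.51, 2.63, 2.77 and 2.16 (adjusted p = 0.0167), and the brightest probes weigh most in the sum. Of 7 markers of adventitial fibroblasts 4 were present, among them Pdgfra and Lum. The sum over all 7 was 112 and 135 on number 1 and 40.0 to 62.5 on the others. Cd34 of that list was well above background on no array, and Pi16 and Clec3b were on all 8 with no call between numbers. In bulk RNA fewer cells of a type and less RNA per cell cannot be told apart, and the part of these markers in the Hox results was not tested.

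**Figure D5:**
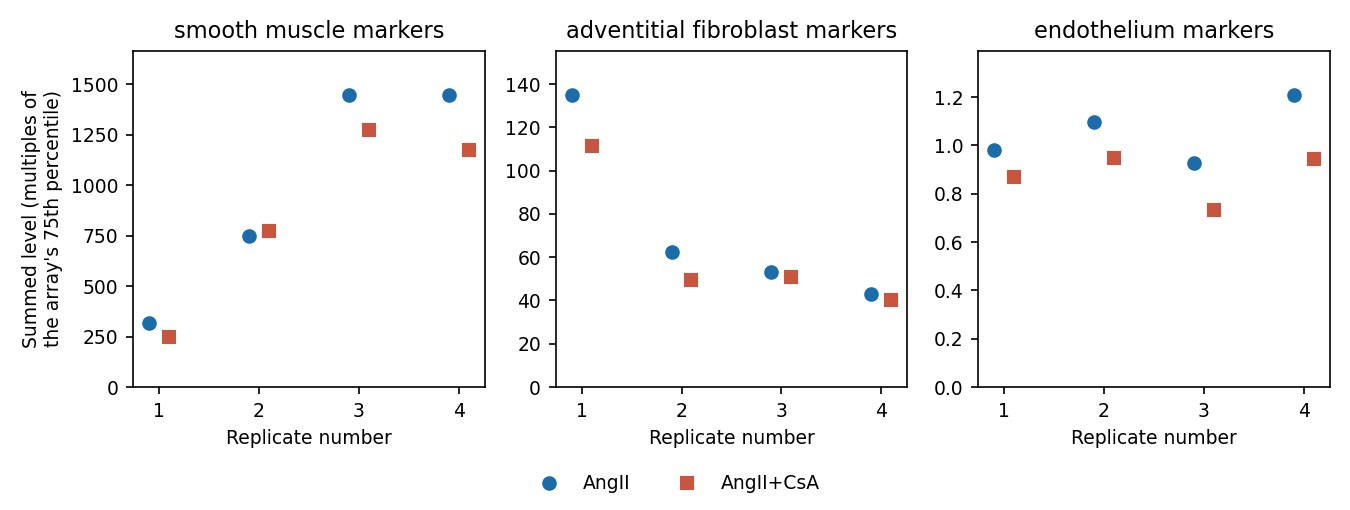
Summed linear levels (multiples of the array's 75th percentile) of all markers of each list, present or not, for each array by replicate number. Smooth muscle markers run from 250 to 318 at number 1 and from 748 to 1448 at the others, and fibroblast markers from 112 to 135 and from 40.0 to 62.5.

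The other marker lists gave these values. Endothelial markers summed to 0.87 and 0.98 on the arrays of number 1 and 0.73 to 1.21 on the others. Of macrophage markers 3 of 7 were present, of T cell markers 3 of 6 and of perivascular fat markers 1 of 6. Of neuron and neural crest markers 4 of 5 were present. The sum over all 5 was 3.67 and 4.43 on number 1 and 5.19 to 8.28 on the others.

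Between numbers the partners of the Hox proteins passed often, as most genes did. Of the TALE genes 7 of 8 passed: Meis1 had number means of 2.05, 2.73, 3.21 and 2.82 (adjusted p = 0.00596), and Pknox1 had -0.65, 0.87, 1.06 and 0.97 (adjusted p = 0.00299). Of the Polycomb genes 11 of 20 passed, of the Trithorax genes 8 of 11 and of the retinoic acid pathway 9 of 14, all beside the 68% of all genes. The retinoic acid list summed to 80.4 and 86.2 on the arrays of number 1 and 109 to 213 on the others. Aldh1a2, which makes retinoic acid and was picked after its values were seen, had number means of -0.43, 1.49, 2.97 and 2.25. Of the Cdx, Evx and other relatives of the Hox genes 6 of 11 were present and 6 passed, with Gbx2 at 0.95, 1.04, 1.65 and 1.14 and Evx2, the neighbour at the 5′ end of HoxD, at 0.63, 1.72, 1.58 and 1.95. Cdx2 of that list, picked after its values were seen, was highest at number 1, with 3.07, 2.17, 2.34 and 2.11.

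Hoxd9 and Hoxd10 are neighbours that went the same way over the numbers, so the 250 bases before their starts are shown, on the plus strand of assembly GRCm38.p6 from RefSeq. The table of promoters held 22 of the 38 Hox genes, in 24 entries, and not Hoxc9 or Hoxb9. Hoxd10 lies at chr2:74691641-74691890 and Hoxd9 at chr2:74697513-74697762, and the capitals mark the single match to the motifs searched.
Hoxd10: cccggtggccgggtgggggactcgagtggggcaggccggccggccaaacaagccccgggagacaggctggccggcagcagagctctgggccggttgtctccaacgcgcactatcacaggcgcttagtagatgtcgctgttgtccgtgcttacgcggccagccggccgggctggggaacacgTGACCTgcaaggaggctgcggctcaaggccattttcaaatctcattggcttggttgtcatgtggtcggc
Hoxd9: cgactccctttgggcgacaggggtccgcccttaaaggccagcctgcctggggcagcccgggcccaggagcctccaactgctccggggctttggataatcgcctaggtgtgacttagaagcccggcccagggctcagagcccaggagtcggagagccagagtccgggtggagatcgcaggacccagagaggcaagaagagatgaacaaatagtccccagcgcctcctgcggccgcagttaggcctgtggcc
Searched on both strands were AGGTCA, a site of retinoic acid receptors, TGATNNAT, a site of Hox proteins with Pbx, and TATAAA, the TATA box. AGGTCA is in 6 of the 22 Hox genes' windows, among them Hoxd10 on the minus strand, and in 14.0% of 32851 windows of all genes. TGATNNAT is in 4 (7.68% of all) and TATAAA in 4 (12.4% of all), and neither is in these 2 windows. The windows hold 20 CG pairs in Hoxd10 and 13 in Hoxd9, beside a median of 12.5 over the Hox entries and 6 over all. A match is only a match of letters, and no binding was measured here.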

How the data were processed

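Total RNA of 8 cultures was amplified with T7 polymerase into Cy3-labelled RNA and hybridised to 1-colour Agilent arrays, per the labels. Per the file headers, the arrays (design 014868) were read with the software Agilent Feature Extraction, version 9.5.3.1, and the files deposited by the authors give each spot's intensity, linear and background-subtracted, as the processed signal. A second table deposited by the authors holds log2 values, with a normalization not given in the sources used here; it served as an alternative.

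Values were log2 processed signal minus each array's 75th percentile, without control and outlier spots, and spots of a probe were averaged. Genes with a probe well above background on at least 4 of 8 arrays were tested, 14881 of 28785, each by its brightest probe. Probe names were updated through accessions in a RefSeq table (44 of 49 Hox probes).

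Groups were compared in limma 3.58.1 (lmFit, eBayes; R 4.3.3), two-sided, on the groups alone and with the replicate number as a block, and numbers by an F test with group in the model. P-values were Benjamini-Hochberg adjusted over all genes, at a threshold of 0.05. Intervals are 95% and unadjusted. Arrays that share a number deviate together: their deviations from the means of their groups had correlations of 0.70 to 0.86, while other arrays had -0.79 to 0.29. The numbers were therefore treated as pairs. The number of arrays limits the precision. The code was tested on simulated data.

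Every Hox gene is counted. Of the TALE, Polycomb, Trithorax, retinoic acid and Cdx and Evx lists the 2 members with the smallest p between the groups were named. Rcan1, Acta2, Tagln, Myh11 and Cnn1 were named whatever they showed. Other members, such as Meis2, Pbx3, Cdx2, Aldh1a2, Cald1 and the endothelial markers, were named outside that rule. The members and the lists were chosen with earlier results of these data known. Alternatives covered background correction, scaling, the filter, outlier spots, probe choice, the authors' table, the variance model and leaving out arrays. The values of 1 Hox gene and the sequences of 2 probes are not reported here, while counts over the Hox genes include them.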

Additional observations from a re-analysis of the deposited data

Results flagged for a closer look

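In each group of 4 arrays the gap from an extreme array to the nearest other was divided by the range of the group, for the 27 Hox genes well above background on any array. Of 54 such groups 7 had a gap over Dixon's 95% value for 4 samples, where chance flags about 1 group in 20. In 4 of them the array was that of AngII number 1: Hoxc9 was low at -2.93 against -0.37 for the next array (0.906 of the range), Hoxd10 low at -5.42 against -2.88 (0.872), Hoxc13 low at -3.88 against -2.96 (0.834), and Hoxa7 high at 4.49 against 3.48 (0.845). In AngII, Hoxb6 was high on number 3 at 2.86 against 2.26 (0.920). In AngII+CsA, number 2 was low for Hoxb8 at -5.65 against -2.59 (0.907) and for Hoxa4 at -0.13 against 0.05 (0.950). Hoxd10 and Hoxc13 were not well above background on AngII number 1, nor was Hoxb8 on AngII+CsA number 2.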

How the results depend on the processing

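No Hox gene passed between AngII+CsA and AngII under any setting run. Over all genes 0 passed in every setting but the replicate block (4) and the replicate number as a random block (6). The Hox median of -0.03 was 0.0262 with quantile normalization, 0.0267 with the authors' table and 0.0119 with the replicate block and without number 3; leaving out single arrays gave -0.0457 to 0.0413, and numbers with the block -0.0329 to 0.0119. Present Hox genes numbered 22 to 23 when single arrays were left out, 27 on at least 1 array and 17 on all 8. Between numbers, 12 Hox genes and 10120 genes passed; with no filter 16 and 15399 did. Leaving out single arrays gave 5 to 14 Hox genes and 6009 to 11183 genes, lowest without AngII number 4; without AngII number 2 the counts were 7 and 6426, and without AngII+CsA number 4 they were 6 and 6224. Leaving out numbers gave 6 to 11 Hox genes and 6285 to 9123 genes. The counts were 7 and 9123 without number 1 and 6 and 6285 without number 4. The cause was not tested, beyond the fewer arrays. With each of normexp, quantile normalization and the values of the authors, 10 Hox genes passed. Of all genes 8444, 8172 and 8135 passed in these settings, in that order. Of 425 single-gene values of the F test 57 lost a call and 11 gained one. Signal over background sets the limit: probes near background have only bounds, and a number has 2 arrays.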
